A study of Mus musculus with 6 samples.

Results

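The genes described here are 10 members of 1 set: Npy, Spp2, Prss56, Grik1, P2rx2, Avpr1a, Lrrtm1, Thy1, Moxd1 and Ctxn3, out of 20033 genes in the deposited table. They were chosen by name because their levels fell by a large amount in mesonephroi without Wnt9b, and because many of them are better known from neurons or as secreted proteins. RNA was sequenced from whole mesonephroi of male mouse embryos at embryonic day E12.5, 3 labelled Wnt9b knockout and 3 labelled control, each a separate mouse. The design text gives the knockout as global and Wnt9b-/-, so it was not limited to 1 cell type by a Cre driver. The sources differ on the controls, which are Heterozygous in the genotype field and Wnt9b+/+ in the series design. No strain, litter, batch or date is given in the sources used here. The spread between libraries therefore cannot be divided between embryos, dissection and library preparation.

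The Wolffian duct epithelium secretes the Wnt ligand Wnt9b, and the mesenchyme and tubules beside the duct receive the signal. The embryo's mesonephros is a kidney that later regresses, and in males its duct is kept by androgens and becomes the epididymis and vas deferens. Several of the 10 genes encode parts of neuronal signalling: a peptide transmitter, ligand-gated channels, a peptide hormone receptor and adhesion proteins of the synapse or axon. Most are also transcribed in some cells that are not neurons, so a transcript alone does not name a cell type. In whole tissue, fewer cells of a type and less RNA per cell cannot be told apart.

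Levels are given in TPM, a share of transcripts that corrects for gene length and library size. Whole reads recovered from those values came to at least 27784618 and at most 32257630 per library. Wnt9b (ENSMUSG00000018486) was at 23.4, 19.2 and 19.0 TPM in knockouts 1 to 3, against 24.9, 26.4 and 34.0 TPM in controls 1 to 3. Its log2 difference of -0.44 (SE 0.14) missed the threshold of 0.05 (limma, adjusted p = 0.266 over all tested genes), so the gene's own level did not separate the groups past the test. The deleted part of the gene is not given in the sources used here, and a value for the whole gene does not check it. Genes of the mesonephros and its coelomic surface were present in every library: the transcription factor genes Emx2 and Wt1 were at no less than 121 and 211 TPM. Knockout 1 and, to a lesser degree, knockout 2 stood apart in other cell types. The summed level of 9 sympathetic neuron markers was 130, 60.9 and 5.96 TPM in knockouts 1 to 3, against 20.5, 16.4 and 23.1 TPM in controls. Germ cell markers were also uneven among controls, at 29.0, 5.35 and 7.02 TPM. The dissection of neighbouring tissue is not described in the labels.

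All 10 genes were lower in every knockout library than in any control library, as the choice of the genes fixed. The same held for 8.49% of the 17577 genes tested, and the opposite, every knockout above every control, for 8.14%. All 10 also passed limma's threshold in the direction of lower, which 0.313% of tested genes did; since this contrast chose the genes, these counts describe the set and test nothing. The median log2 difference of the 10 was -1.44, on the log2(TPM + 1) scale, and that of all tested genes was -0.0080. By size of fall, the genes ranked between place 3 (Prss56) and place 224 (Thy1) among the tested genes. Ctxn3 kept the smallest share of its control level, 5.59%, and Thy1 the largest, 57.9%.

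**Figure D1:**
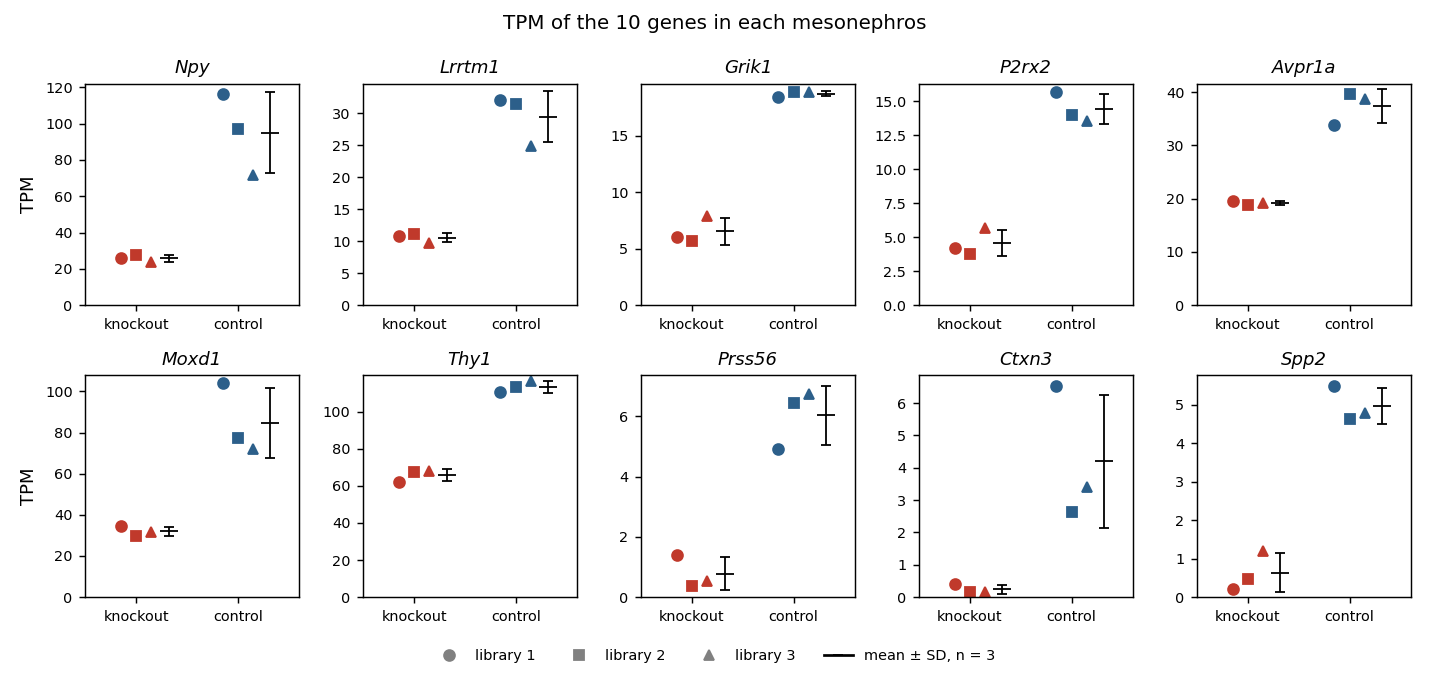
TPM of each of the 10 genes in each mesonephros, knockout left and control right, with 1 symbol per library and the mean ± SD of 3 libraries beside them; every axis starts at 0. No knockout value reaches a control value, and the control spread is wide for Npy, Moxd1 and Ctxn3 and narrow for Grik1 and Thy1.

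The first group is of secreted products. Npy (ENSMUSG00000029819) encodes the precursor of neuropeptide Y, a peptide transmitter of sympathetic nerves and brain. It was at 26.1, 27.6 and 23.6 TPM in knockouts 1 to 3, against 116, 97.1 and 71.8 TPM in controls 1 to 3. The knockout mean was 27.1% of the control mean (25.8 ± 2.00 TPM in knockouts and 95.04 ± 22.3 TPM in controls; SD, n = 3 each), a log2 difference of -1.82 (SE 0.16). The knockouts lay close together and the controls were spread widely, with control 1 the highest. The lowest control was still 2.60-fold above the highest knockout.

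Spp2 (ENSMUSG00000026295), a secreted phosphoprotein gene best known from bone and liver, was at 0.219, 0.480 and 1.20 TPM in knockouts 1 to 3. Controls 1 to 3 had 5.49, 4.64 and 4.77 TPM. These are low values, resting on 2, 4 and 10 reads in the knockouts and on 53, 38 and 38 reads in the controls. The pooled ratio of knockout over control was 0.126 with an exact 95% interval of 0.0697 to 0.212, which covers counting error only. The 3 knockouts differed more among themselves than the 3 controls did.

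Prss56 (ENSMUSG00000036480) encodes a trypsin-like serine protease known for its part in eye growth. Its level was 1.40, 0.382 and 0.548 TPM in knockouts 1 to 3, against 4.90, 6.44 and 6.75 TPM in controls 1 to 3. The reads behind these were 28, 7 and 10 in knockouts and 104, 116 and 118 in controls, for a pooled ratio of 0.135 (exact 95% interval 0.0965 to 0.185). Knockout 1 was the highest knockout and control 1 the lowest control, so libraries of the same number did not deviate together.

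The promoter windows of RefSeq (build GRCm38.p6, 250 bases before to 50 after a start site, another build than the files') matched 6 of the 10 genes: Npy, Spp2, Prss56, Lrrtm1, Moxd1 and Avpr1a. They were searched on both strands for the Tcf/Lef core, through which beta-catenin acts on its targets, spelled as CTTTGAA, or with the ending changed as in CTTTGAT, or as CTTTGTA, or again as CTTTGTT. Only a part of the androgen receptor's site was searched, the hexamer TGTTCT, which is called the androgen receptor motif here. The whole site was not searched. Among the 6 genes no match of the Tcf/Lef core overlapped a match of the hexamer. Of the 6, 1 held a Tcf/Lef core (Prss56, with a match on each strand) and 1 the hexamer of the androgen receptor's site (Spp2). Of 32851 windows of that length, 16.9% held the core and 19.0% the hexamer. All matches found in the 6 windows are shown. The motif is in capitals, and each is read 5′ to 3′ on the strand of its gene, the plus strand.
Prss56, chr1:87183121-87183147, the core on the gene's strand: atctcagcccCTTTGAAgcaaccgcag
Prss56, chr1:87183191-87183217, the core on the other strand: acgatgagacTTCAAAGgtgagggtcc
Spp2, chr1:88406819-88406844, the androgen receptor motif on the other strand: cctcccccaaAGAACAaaatgcaaag
A match is a description of letters and not a site of binding. The GC content of the 6 windows ran between 40.7% (Lrrtm1) and 68.0% (Npy), where the median of all windows was 52.7%.

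The second group is of receptors and channels. Grik1 (ENSMUSG00000022935) encodes GluK1, a subunit of kainate-type glutamate receptors. It was at 6.03, 5.71 and 7.92 TPM in knockouts 1 to 3, against 18.4, 18.8 and 18.8 TPM in controls 1 to 3. The controls agreed within 1.20% (SD as a percent of the mean), the narrowest spread of the 10 genes, while the knockouts spread by 18.2%. The log2 difference was -1.40 (SE 0.14).

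P2rx2 (ENSMUSG00000029503), the gene of an ATP-gated cation channel of sensory and autonomic neurons, was at 4.22, 3.79 and 5.66 TPM in knockouts 1 to 3. Controls 1 to 3 had 15.7, 14.0 and 13.6 TPM. As for Grik1, knockout 3 was the highest and knockout 2 the lowest of the knockouts. The knockout mean was 31.6% of the control mean.

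Avpr1a (ENSMUSG00000020123) encodes the V1a receptor for vasopressin, a receptor of vessel wall, liver and brain that signals through calcium. It had 19.5, 18.8 and 19.2 TPM in knockouts 1 to 3 and 33.8, 39.6 and 38.7 TPM in controls 1 to 3. The knockouts agreed within 2.00% (SD as a percent of the mean), and the mean was 51.3% of that of controls. Avpr1a and Thy1 kept the largest shares of their control levels among the 10.

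The third group is of adhesion and surface proteins. Lrrtm1 (ENSMUSG00000060780) encodes a leucine-rich transmembrane protein of the postsynaptic side that binds neurexins. It was at 10.8, 11.1 and 9.72 TPM in knockouts 1 to 3, against 31.99, 31.5 and 24.9 TPM in controls 1 to 3. Control 3 was low among controls and knockout 3 low among knockouts, as for Npy. The log2 difference was -1.39 (SE 0.12).

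Thy1 (ENSMUSG00000032011), a lipid-anchored surface glycoprotein of neurons, thymocytes and some fibroblasts, had the highest control level of the set. It was at 62.3, 67.4 and 67.8 TPM in knockouts 1 to 3, against 111, 113 and 117 TPM in controls 1 to 3. Both groups were tight, with SDs of 3.08 and 3.17 TPM around means of 65.8 and 113.6 TPM. Of 5 T cell markers, Lck alone was analysed here, and it was at 7.56 to 9.28 TPM in knockouts and 7.37 to 7.66 TPM in controls.

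The last group holds an enzyme and a small membrane protein. Moxd1 (ENSMUSG00000020000) encodes a copper-dependent monooxygenase related to dopamine beta-hydroxylase. It was at 34.3, 29.6 and 31.7 TPM in knockouts 1 to 3, against 104, 77.6 and 72.0 TPM in controls 1 to 3. Control 1 stood above the other controls, and the knockout mean was 37.7% of the control mean.

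Ctxn3 (ENSMUSG00000069372), of the cortexin family of small membrane proteins known from brain and kidney, was at 0.406, 0.148 and 0.149 TPM in knockouts 1 to 3. Controls 1 to 3 had 6.53, 2.64 and 3.42 TPM. Only 6, 2 and 2 reads lie behind the knockout values, and 102, 35 and 44 behind the control values. The pooled ratio of knockout over control was 0.0560 with an exact 95% interval of 0.0264 to 0.105, counting error only. Control 1 held 102 of the 181 control reads of the gene. For the low genes Prss56, Ctxn3 and Spp2, the log2(TPM + 1) differences of -2.02, -2.01 and -1.91 understate the fall: the authors' deposited table gives log2 fold changes of -2.93, -4.15 and -2.98.

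Across libraries, the 10 genes did not keep 1 common order inside a group. Control 1 was the highest control for 6 of them (Npy, Lrrtm1, P2rx2, Moxd1, Ctxn3 and Spp2) and the lowest for the other 4 (Grik1, Avpr1a, Thy1 and Prss56). Npy, Lrrtm1, P2rx2 and Moxd1 shared the same order of all 3 controls, with control 1 above control 2 and control 2 above control 3. Thy1, Grik1 and Prss56 had the opposite order, although the controls of Grik1 and Thy1 deviated from their means by no more than 0.042 on the log2 scale. Among controls Ctxn3 deviated most, by 0.61 for control 1 and -0.44 for control 2 from the group mean on the log2(TPM + 1) scale.

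Among knockouts, knockout 3 was the highest for Grik1, P2rx2, Thy1 and Spp2, and knockout 1 for Avpr1a, Moxd1, Prss56 and Ctxn3. Npy and Lrrtm1 were highest in knockout 2 and lowest in knockout 3, so the order of libraries was the same for this pair among knockouts as well as among controls. Of the 10 genes, 6 were lowest in knockout 2. The within-group SD on the log2 scale ran between 0.055 for Thy1 and 0.40 for Ctxn3, where the median of 12765 tested genes of at least 5 TPM was 0.13. With 3 libraries a group, no correlation was computed. Control 1 also had the highest gonadal soma and germ cell sums of the controls (109 TPM against 95.1 and 92.3, and 29.0 TPM against 5.35 and 7.02), whose part in the order of the 6 genes was not tested.

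**Figure D2:**
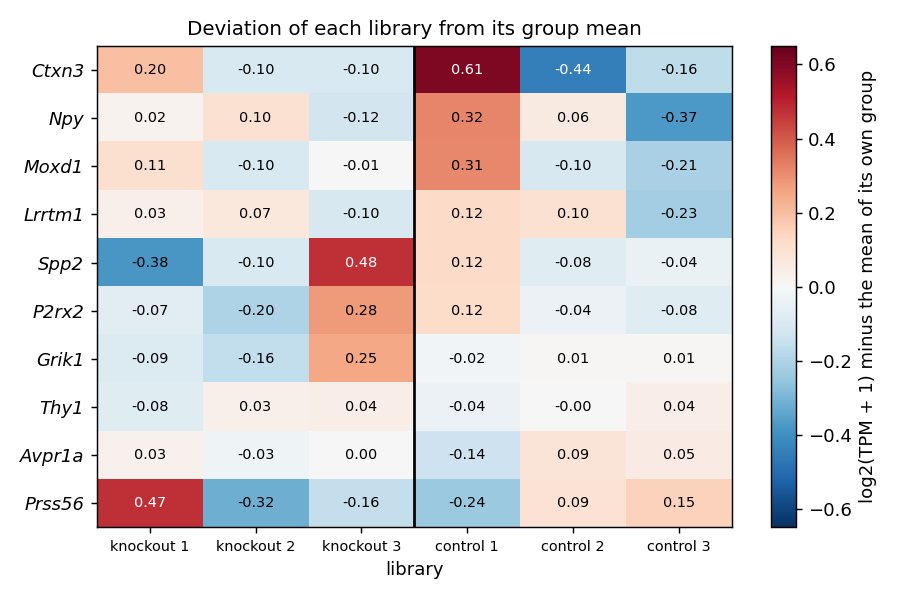
Deviation of each library from the mean of its own group on the log2(TPM + 1) scale, for the 10 genes (rows, ordered by control 1) in 3 knockout and 3 control libraries; red is above and blue below the group mean. Control 1 is high for Ctxn3, Npy and Moxd1 and low for Prss56, and knockout 3 is high for Spp2, P2rx2 and Grik1.

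No neuronal marker passed the test in the direction in which the 10 genes had been chosen. The summed TPM of 12 general neuronal markers was 204, 127 and 116 in knockouts 1 to 3, against 114, 95.7 and 104 in controls 1 to 3, so every knockout lay above every control. The exact two-sided permutation test gave p = 0.1, the smallest that 3 against 3 allows (0.233 after adjustment over 14 marker lists). It gave the same values for the glia, duct, tubule, gonadal soma and endothelium lists, so it does not single out neurons. The log2 difference of the sums was 0.464 with all libraries and 0.215 without knockout 1. All 9 tested markers had log2 differences above 0, with a median of 0.45. Limma called 0 of them (2 had an unadjusted p under 0.05, and limma-voom called 0). Of all tested genes, 11.3% had an unadjusted p under 0.05, which is the share to read such counts against. Stmn2, a growth-associated gene of neurites and the marker of highest level, averaged 37.9 ± 5.40 TPM in knockouts and 36.2 ± 4.80 TPM in controls. Nefm, a neurofilament gene, averaged 42.3 ± 9.07 TPM in knockouts and 29.5 ± 2.31 TPM in controls.

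Sympathetic neurons use neuropeptide Y as a transmitter. Their summed markers differed by 0.88 on the log2 scale in the direction of higher (exact permutation p = 0.5; 0.583 adjusted). Without knockout 1 the difference was -0.0030, so 1 library carried it. Phox2a and Cartpt were listed at 0 in knockout 3, and Cartpt in control 2 as well. Npy was at 23.6 TPM in knockout 3, where the sympathetic sum was 5.96 TPM. In knockout 1 Npy was at 26.1 TPM, where that sum was 130 TPM. A part of neurons in the fall of the 10 genes was not tested. Of 7 tested sympathetic markers 0 passed limma (1 at an unadjusted p under 0.05; 0 by limma-voom), and Isl1, the one of highest level, differed by 0.61 (SE 0.92) on that scale.

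Of 5 glial and neural crest markers analysed here, summing to 28.7, 26.4 and 26.2 TPM in knockouts and 21.0, 24.03 and 23.9 TPM in controls 1 to 3, 4 were tested and 0 passed (1 at an unadjusted p under 0.05; 0 by limma-voom). Erbb3, the highest, averaged 9.26 ± 1.78 TPM in knockouts and 10.6 ± 1.93 TPM in controls. The word neural for some of the 10 genes comes from their known roles. No marker list for neurons, sympathetic neurons or glia had a gene past limma in the direction of lower.

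**Figure D3:**
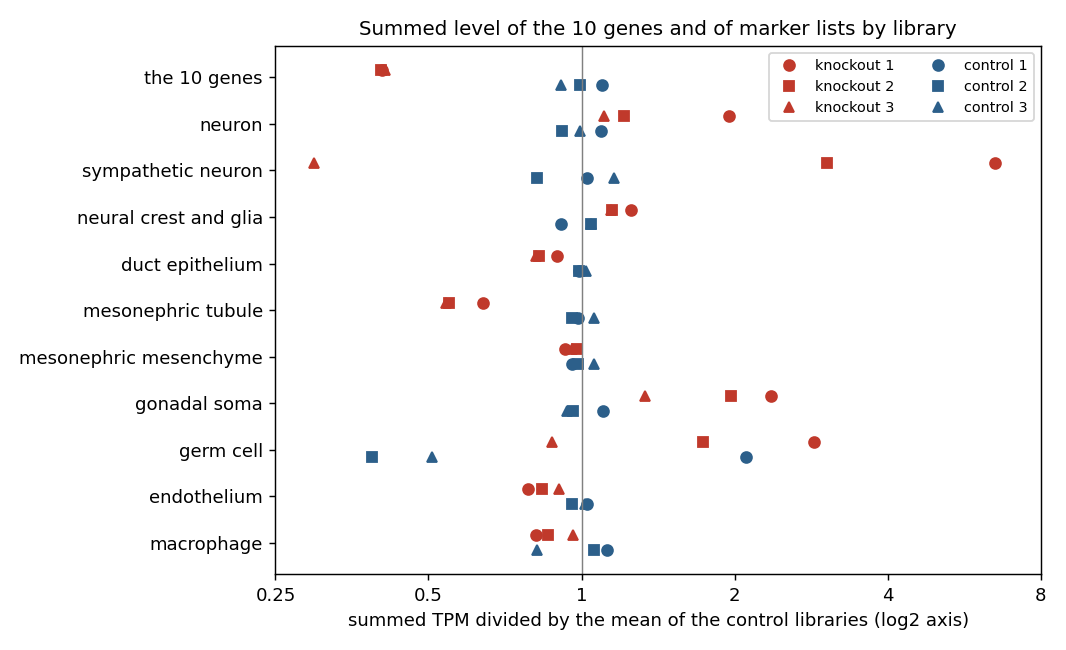
Summed TPM of the 10 genes and of 10 marker lists in each library, divided by the mean of the 3 control libraries (log2 axis); red is knockout and blue is control. The sum of the 10 genes is 165, 165 and 168 TPM in knockouts and 448, 406 and 372 TPM in controls. General neuron, glia and gonadal soma sums lie above every control in all 3 knockouts. Duct, tubule and endothelium sums lie below every control. The sympathetic neuron sum lies above every control in knockouts 1 and 2 and below every control in knockout 3.

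Of 7 tested tubule markers limma called 2 lower, where 0.313% of all tested genes were, with 6 at an unadjusted p under 0.05, and limma-voom called 3. The 8 tubule markers summed to 106, 91.6 and 90.0 TPM in knockouts and to 164, 160 and 176 TPM in controls, and the 7 tested had log2 differences below 0 with a median of -0.75 (exact permutation p = 0.1; 0.233 adjusted). The Iroquois factor gene Irx1 (log2 difference -1.37, SE 0.22) and the Notch ligand gene Jag1 (-0.57, SE 0.083) fell (limma adjusted p = 0.0454 and 0.0325). Irx1 missed the threshold with a pseudocount of 0.1 (adjusted p = 0.0661) and with median-of-ratios scaling (0.0505). Of 12 tested duct markers limma called 2 lower, with 5 at an unadjusted p under 0.05, and limma-voom called 3. The 2 were the LIM factor gene Lhx1 (-1.32, SE 0.15) and the calcium-binding protein gene Calb1 (-1.35, SE 0.19; limma adjusted p = 0.0123 and 0.0281). Of the 12, 9 had log2 differences below 0, with a median of -0.26, while Gata3, Ret and Cdh1 were at 0.027, 0.12 and 0.17. The duct sum was 745 to 817 TPM in knockouts and 903 to 933 TPM in controls. An unadjusted p under 0.05 was held by 11.3% of all tested genes. The duct or tubule share of the tissue as a part of the fall of the 10 genes was not tested.

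In the mesenchyme list, the receptor gene Pdgfrb fell and the transcription factor gene Tcf21 rose (log2 differences -0.60 and 0.62; limma adjusted p = 0.0137 and 0.0197), and 7 of 9 tested did not pass, where 0.313% of all tested genes were lower and 0.131% higher; 5 had an unadjusted p under 0.05, and limma-voom called 1 in each direction. Of 8 tested genes of the gonadal soma, Nr5a1 and Gata4 rose, by 1.62 and 1.82 on the log2 scale (limma adjusted p = 0.0281 and 0.0354), with 4 at an unadjusted p under 0.05 and 2 called higher by limma-voom. Gata4 missed it with median-of-ratios and upper-quartile scaling (0.0585 and 0.0561). The 8 marker calls depended on which libraries were kept: 0 of all 93 tested markers passed without knockout 2, control 2 or control 3, 1 without knockout 1 (Lhx1), 3 without control 1 (Pdgfrb, Nr5a1 and Gata4), and 17 without knockout 3. Irx1 fell under the filter on low values whenever a control was left out. The median log2 difference of those 93 markers was 0.062. As above, 11.3% of all tested genes had an unadjusted p under 0.05.

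Endothelial markers summed to 288, 307 and 332 TPM in knockouts and 377, 352 and 374 TPM in controls, with 0 of 6 past limma (3 at an unadjusted p under 0.05; 0 by limma-voom); Cdh5, of highest level, averaged 88.0 TPM in knockouts and 107 TPM in controls. No gene passed limma among podocyte (0 of 4 at an unadjusted p under 0.05), macrophage (0 of 6), red cell (1 of 9), germ cell (1 of 5), coelomic and Müllerian (3 of 6) or T cell (0 of 1) markers, and limma-voom called 0 in each. Their members of highest level, Wt1, C1qb, Hbb-y, Dppa3, Krt19 and Lck, had log2 differences of 0.045, -0.26, 0.061, 1.14, 0.40 and 0.13. Among all tested genes, 11.3% had an unadjusted p under 0.05.

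The relatives and partners of the 10 genes mostly did not pass the test. Of 77 such genes listed, 48 were tested, and 1 was higher, 2 were lower and 45 did not pass over all genes, where 0.444% of all tested genes were called in either direction. Their median log2 difference was -0.14, against -0.008 for all tested genes, and 13 had an unadjusted p under 0.05. Among all tested genes that share was 11.3%, which is also the share to read the counts of the lists below against. By limma-voom, 6 were called. The lower ones were Pam (ENSMUSG00000026335) and Prss23, and the higher one was Cbln1.

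Pam encodes the enzyme that amidates peptide hormones, among them neuropeptide Y, and belongs with Moxd1 to the copper monooxygenases. It averaged 37.5 ± 4.35 TPM in knockouts and 62.7 ± 4.01 TPM in controls (SD, n = 3 each), which is -0.73 on the log2 scale (SE 0.097; limma adjusted p = 0.0248). The serine protease gene Prss23 averaged 27.0 ± 2.55 TPM in knockouts and 44.0 ± 3.01 TPM in controls, which is -0.68 on the log2 scale (SE 0.096; limma adjusted p = 0.0300). Cbln1, a secreted partner of neurexins, averaged 6.76 ± 1.26 TPM in knockouts and 0.668 ± 0.600 TPM in controls, which is 2.26 on the log2 scale (SE 0.28; limma adjusted p = 0.0179). Without knockout 1 or 2 or any 1 control, Pam and Prss23 no longer passed, with adjusted p between 0.0664 and 0.140 for Pam and between 0.0935 and 0.157 for Prss23. Without knockout 3 they were at 0.0102 and 0.02003. Cbln1 lost its call without knockout 1 or 2 or control 2 or 3 (0.0755, 0.109, 0.0876 and 0.0867) and kept it without knockout 3 or control 1 (0.0225 and 0.0154).

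Within the kainate receptor family, Grik1 came after Grik5 and Grik4 in knockouts, and next to Grik5 in controls. In knockouts Grik5 averaged 58.0 ± 7.14 TPM, Grik4 8.45 ± 1.90, Grik1 6.55 ± 1.20, Grik2 2.83 ± 0.607 and Grik3 1.82 ± 0.835 TPM. In controls Grik5 averaged 56.0 ± 5.95 TPM, Grik1 18.7 ± 0.224, Grik4 10.2 ± 1.55, Grik2 6.07 ± 0.185 and Grik3 2.54 ± 1.97 TPM. Grik1 and Grik4 overlapped in knockouts and did not in controls. Grik2, a partner subunit of kainate receptors, was at 3.20, 2.13 and 3.16 TPM in knockouts and 6.29, 5.99 and 5.95 TPM in controls, and its log2 difference of -0.90 (SE 0.18) did not pass (limma adjusted p = 0.0933). Of 11 tested glutamate receptor genes and auxiliary subunits 0 passed limma, 4 had an unadjusted p under 0.05, and limma-voom called 2 lower.

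Within the P2X channels, P2rx2 averaged 4.56 ± 0.976 TPM and P2rx4 6.10 ± 0.594 TPM in knockouts, and these 2 ranges overlapped. In controls P2rx2 was the highest P2X gene analysed here, at 14.4 ± 1.12 TPM, with P2rx4 next at 7.75 ± 0.240 TPM. P2rx4 itself differed by -0.30 on the log2 scale (SE 0.14) and was not called (limma adjusted p = 0.460). Of 7 tested P2X and ATP-handling genes 0 passed limma (1 at an unadjusted p under 0.05; 0 by limma-voom). Panx1, an ATP release channel and the highest of them, averaged 17.4 ± 1.64 TPM in knockouts and 18.6 ± 2.09 TPM in controls.

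Lrrtm1 had the highest level of its family: Lrrtm2 and Lrrtm3 stayed under 1 TPM in every library and Lrrtm4 did not exceed 1.83 TPM. The neurexin genes, partners of Lrrtm1 across the synapse, were also low: Nrxn2, the highest of them, was at 4.37 to 5.86 TPM in knockouts and 4.14 to 4.76 TPM in controls. Of 8 tested genes of this list limma called 1 higher, which is Cbln1, and 0 lower, with 2 at an unadjusted p under 0.05, and limma-voom called 1 higher and 1 lower. Its relative Cbln2 averaged 6.59 ± 1.47 TPM in knockouts and 11.7 ± 0.916 TPM in controls, and did not pass (limma adjusted p = 0.123).

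**Figure D4:**
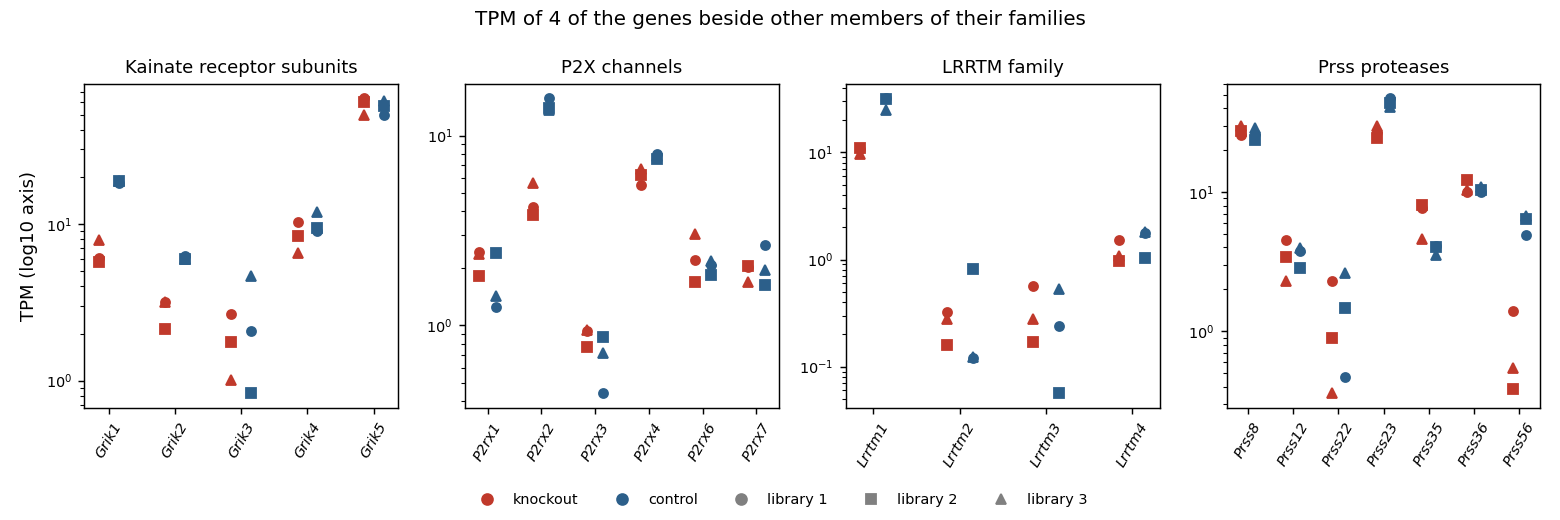
TPM on a log10 axis of 4 of the genes beside other members of their families, with knockout in red, control in blue and 1 symbol per library. Grik1, P2rx2, Lrrtm1 and Prss56 separate the groups, as do their relatives Grik2, P2rx4 and Prss23, lower in knockouts, and Prss35, higher in knockouts, while the ranges of every other relative plotted overlap.

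The remaining lists held few measurable genes. For Npy, its relative Pyy was at 0.378 to 3.45 TPM in knockouts and 0.767 to 3.91 TPM in controls, and the receptor gene Npy2r was listed at 0 in knockout 3 and did not exceed 1.58 TPM. Dpp4, a peptidase that trims neuropeptide Y and the highest of that list, averaged 24.6 ± 6.90 TPM in knockouts and 36.8 ± 2.39 TPM in controls and did not pass (limma adjusted p = 0.228). Cpe, a peptide-processing enzyme, averaged 103 ± 12.9 TPM in knockouts and 114 ± 8.63 TPM in controls. For Avpr1a, the oxytocin receptor gene Oxtr was at 0.448 to 0.698 TPM in knockouts and 0.809 to 1.46 TPM in controls, and the peptidase gene Lnpep had a log2 difference of 0.0080.

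For Thy1, all 6 partner genes tested had log2 differences below 0, with a median of -0.17, but 0 passed limma (1 at an unadjusted p under 0.05; 0 by limma-voom). Itgb1, the integrin beta 1 gene and the highest of them, averaged 412 ± 57.8 TPM in knockouts and 452 ± 21.8 TPM in controls. Ctxn1, the relative of Ctxn3, was far higher than Ctxn3 at 378 ± 89.6 TPM in knockouts and 332 ± 26.0 TPM in controls, with a log2 difference of 0.16 (SE 0.16). Of Prss genes, 1 of 6 tested was lower, the Prss23 given above. Cst3, a cystatin related to Spp2 in fold, averaged 381 ± 15.9 TPM in knockouts and 408 ± 71.3 TPM in controls.

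The 5 genes outside the set whose levels over the 6 libraries lay closest to the median profile of the 10 were Ggt1, Igfbp3, Spp1, Apcdd1 and Hand2os1. Likeness was the root mean square distance between centred log2(TPM + 1) profiles, which was 0.11 for Ggt1, 0.18 for Igfbp3 and Spp1, 0.19 for Apcdd1 and 0.20 for Hand2os1. For members it ran between 0.079 (P2rx2) and 0.43 (Prss56). The measure mainly picks genes with a like fall, so their difference is a description. Ggt1, the gene of a glutathione-cleaving enzyme of kidney tubules, was at 3.82, 3.95 and 4.20 TPM in knockouts 1 to 3, against 12.2, 11.2 and 9.39 TPM in controls 1 to 3. It shared the control order of Npy, Lrrtm1, P2rx2 and Moxd1. Igfbp3 encodes a binding protein of insulin-like growth factors, Spp1 osteopontin and Apcdd1 a membrane inhibitor of Wnt signalling, and Hand2os1 is a noncoding neighbour of Hand2.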

How the data were processed

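Poly(A) RNA from 6 whole male mesonephroi was read as paired ends, per the labels' protocols. Build GRCm39 and DESeq2 are named by the submitters' processing notes; for the aligner, counter, strand setting and annotation, names were not given in the sources used here. Per gene and library, the authors deposited 1 TPM value, per the file headers, in which each library sums to the same total. Beside it stand the authors' log2 fold change and p-value, as deposited, and only that log2 fold change is quoted, where named.

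Samples were grouped by title. The test over all genes used limma (version 3.58.1; R version 4.3.3), fitted to log2(TPM + 1) with genotype as the only term and with the trend option. A gene entered where 3 or more libraries reached 1 TPM, which left 17577. The Benjamini-Hochberg adjustment ran over all of them, with a threshold of 0.05. TPM keeps no depth, but whole reads could be recovered for 20029 of 20033 genes with a tolerance of 0.02. Counts up to 120000 were tried for the lowest library of a gene. In 1000 genes checked with counts up to 4000 only, the deposited values gave whole reads for 92.9% and randomly altered values for 0.1%. The check does not cover genes recovered with counts above 4000. A factor common to the 6 libraries of a gene is lost, so reads are lower bounds. On reads simulated for this comparison (17750 genes), the test called 98.3% of the genes with a 2-fold change, and 57.0% where it was 1.5-fold. Changes were placed only in genes of at least 5 TPM on average, with the same dispersion for every gene and no library that stood apart. The real libraries were less even, so these shares do not give the power of the test here, least of all for Prss56, Ctxn3 and Spp2. In GENCODE M21, of another build, no exon of another gene overlapped one of the 10 genes. Marker sums were compared by exact permutation tests.

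The 10 genes, lists and tests were chosen with earlier results of these data known. Named genes were Wnt9b, the 10 genes, list members past the test (at most 4 per marker list) or otherwise the one of highest level, and the 5 genes of likest profile of at least 5 TPM on average. Emx2, Gata3, Ret, Cdh1, Osr2, Nefm, Phox2a and Cartpt were named outside that rule after their values were seen. So were Grik2, Cbln2, P2rx4, Prss35, Cpe, Oxtr, Pyy and Npy2r. The same holds for the other family members given by level and for the genes in places 6 to 15 by likeness. Alternatives were another pseudocount, no filter, other scalings, array weights, a replicate block, leaving out each library, and limma-voom on recovered reads.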

Additional observations from a re-analysis of the deposited data

How the results depend on the processing

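No log2 difference of the 10 genes changed sign in 117 recomputed values. Every knockout lay under every control for these genes, so this was fixed in advance and tests nothing. Their median of -1.44 was -1.59 with a pseudocount of 0.1 and -1.59 by limma-voom on the recovered reads. It was -1.57 to -1.40 when each library was left out. Ctxn3 fell under the filter on low values whenever a control was left out, so the medians without a control do not hold it. For Prss56, Ctxn3 and Spp2 alone the difference moved beyond the spread. With the smaller pseudocount it was -2.97, -3.67 and -3.02, as the construction of the scale requires. The counts of all genes past the test, 23 higher and 55 lower, were 103 and 182 with array weights, 91 and 184 by limma-voom, and 2 to 97 and 10 to 145 when each library was left out. The replicate block gave 4 higher and 13 lower. Deviations of same-numbered libraries correlated at -0.14, 0.08 and -0.09, and those of other pairs at -0.09 to 0.19. Libraries of the same number were thus no more alike than others. With litter and batch not given, whether the numbers pair the libraries is unknown. Related family genes past the test, 3 in all, were 0 with the replicate block, 6 with array weights, 6 by limma-voom and 0 to 5 without 1 library. Marker genes past the test, 8 in all, were 2 with the replicate block, 14 with array weights and 0 to 17 without 1 library. Marker sums changed sign only where near 0 or carried by 1 library: sympathetic neuron (-0.0030 to 2.11 without 1 library), podocyte (-0.035 to 0.094) and coelomic (-0.052 to 0.10). Knockout 3 was the highest knockout for 4 of the 10 genes and for 4 to 8 when 1 library was left out. The replicate block also took the calls of Calb1, Cbln1, Gata4, Irx1, Jag1, Pam, Pdgfrb, Prss23 and Tcf21. The cause of these shifts was not tested. Scalings, the filter and the promoter window of bases before the start moved none of these counts or sums past 1.5 times or through 0. Ctxn3, Spp2 and Prss56 rest on 10, 16 and 45 knockout reads, and 3 libraries a group limit every spread.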

Other observations

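The genes in places 6 to 15 of the ranking by likeness to the 10 were Lhx1, Tbx3os1, Calb1, Tmem59l, Vstm2a, Fzd10os, Adra2a, Notum, Ntn1 and Ndnf. They were added after their values were seen and are given with no test, and the ranking itself picks genes that were low in knockouts. Adra2a, the alpha-2A adrenergic receptor gene of sympathetic nerves and their targets, was at 6.39, 6.66 and 4.89 TPM in knockouts 1 to 3, against 14.7, 13.5 and 15.7 TPM in controls 1 to 3. Vstm2a, which encodes a secreted immunoglobulin-domain protein, averaged 7.36 ± 1.48 TPM in knockouts and 17.5 ± 2.00 TPM in controls (SD, n = 3 each). Ndnf, a secreted neurotrophic factor gene, averaged 12.2 ± 0.592 TPM in knockouts and 24.7 ± 1.69 TPM in controls. Ntn1, the gene of the guidance cue netrin 1, averaged 8.63 ± 2.75 TPM in knockouts and 19.2 ± 1.48 TPM in controls; knockout 3 was the highest knockout, as it was for Grik1, P2rx2 and Spp2. Tmem59l averaged 5.05 ± 1.27 TPM in knockouts and 11.8 ± 0.764 TPM in controls. Notum, which encodes a secreted enzyme that inactivates Wnt proteins, averaged 43.5 ± 1.82 TPM in knockouts and 86.4 ± 0.467 TPM in controls. Tbx3os1 averaged 26.1 ± 1.84 TPM in knockouts and 55.8 ± 1.19 TPM in controls, and Fzd10os 4.63 ± 1.04 TPM in knockouts and 10.5 ± 0.970 TPM in controls. Lhx1 and Calb1 are given above among the duct markers.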
